A study of Mus musculus with 6 samples.

Results

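The 42 genes described here encode the subunits of the proteasome with its activators, its inhibitor and the chaperones of its regulatory particle. They are all genes that the array names Psma, Psmb, Psmc, Psmd, Psme or Psmf followed by a number, 42 of 19504 named genes, measured by 63 probes. Each gene was represented by its brightest probe by mean over the 6 arrays, and 26 of the genes had a single probe. Expression was measured on 1-colour arrays in laser-captured tissue of the autopod, the future hand or foot, of C57BL/6 mouse embryos at E14.5. The control embryos are labelled wild type, and the mutants carried Tgfbr2Prx1KO, which by convention means that Tgfbr2, encoding the type II receptor for TGF-beta, was removed from limb mesenchyme by a recombinase under the Prx1 promoter. Interzone (the cell band in which a joint forms), growth plate chondrocytes and interdigital tissue of each genotype gave 1 array each. Each genotype was represented by 2 littermate embryos, and the sources used here do not say which of them an array drew on. One mutant title reads Tbr2Prx1KO while its genotype label reads Tgfbr2Prx1KO, and groups were taken from titles because 5 descriptions name irradiated blood.

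The proteasome degrades proteins that carry ubiquitin chains. Its barrel-shaped core, the 20S particle, is built of outer alpha rings that gate entry and inner beta rings that hold the cutting sites, and the 19S regulatory particle binds, unfolds and feeds in substrates through a ring of ATPases (the base) under a lid that removes ubiquitin. The complex is present in all cells, and its subunit genes are commonly raised together when proteasome activity is short, through the transcription factor Nfe2l1. In cells exposed to interferon, and in leukocytes at rest, alternative cutting subunits enter the core and form the immunoproteasome, which favours peptides for antigen presentation. In cartilage the proteasome belongs to the machinery that turns over signalling proteins and misfolded matrix precursors.

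Each group had 1 array, so differences between 2 groups are given without replicates and without p-values. A level is the log2 processed signal of a probe relative to the 75th percentile of its array, so a level of 0 is that percentile, and a gene was counted as higher or lower from a 2-fold difference. The control growth plate array had a median processed signal of 103 units, against 340 to 502 on the other 5 arrays, and 72.3% of its spots were well above background, against 77.3% to 88.3%. The 3 control arrays and the mutant interzone array lay on slide 1, while the mutant growth plate and interdigital arrays lay on slide 2, so that for the growth plate and interdigital pairs slide and genotype cannot be told apart. All 8 cartilage markers were present on the growth plate control array with a summed signal of 448 times the 75th percentile. All 8 were at least 2-fold lower on the mutant growth plate array, where the sum of 51.5 was the lowest of the 6 arrays. The sum was 63.9 in mutant interzone and 54.2 in mutant interdigital tissue, so cartilage markers do not bear out the mutant growth plate label. Interzone markers were highest in control interzone (56.1, against 11.2 to 29.6 on the other 5 arrays), but in the mutant they summed to 15.2 in interzone and 19.6 in interdigital tissue. The sum of the 6 interdigital markers was highest in control interzone too (7.94, against 3.92 in control interdigital tissue), but the list was split. Msx1 and Msx2 were at least 2-fold higher in control interzone than in control interdigital tissue, and Aldh1a2 at least 2-fold lower. Rarb, Bmp7 and Bambi were within 2-fold, so this list does not clearly bear out the interdigital label. Tgfbr2 itself had levels of 2.42, -2.40 and 2.50 in control interzone, growth plate and interdigital tissue and of 2.24, 1.20 and 1.92 in the matching mutant tissues, so its signal did not separate the genotypes. Where its probes lie relative to the deleted part is not known here. In whole captured tissue, fewer cells of a type and less RNA per cell cannot be told apart.

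All 42 subunit genes were well above background on all 6 arrays. Between 34 and 39 of the 42 lay above the 75th percentile of an array, against 34.7% to 35.6% of all named genes. Their ranges were narrower than those of most genes, with no matching on level: the range over the 6 arrays had a median of 1.46 (log2) over the 42 genes and of 2.16 over the 15596 genes detected on every array. A range within 4-fold was seen for 29 of the 42 (69.0%) and for 45.5% of all genes. Without the control growth plate array the shares were 83.3% (35 of 42) and 62.9%. The steadiest member was Psme3, which encodes a nuclear activator that opens the core without ATP, with levels from 2.36 to 2.61 on the 6 arrays. The 2 widest ranges belonged to Psmc2 and Psmd9, at 8.49 each.

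**Figure D1:**
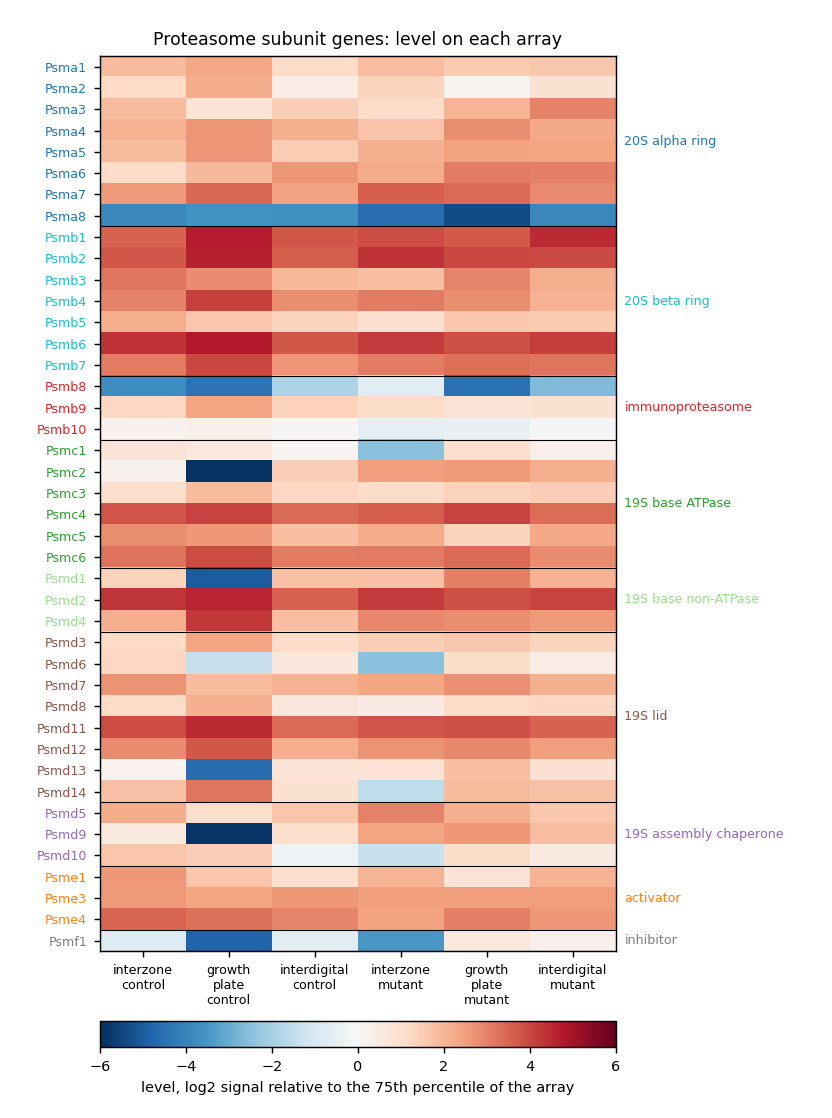
Level of each of the 42 proteasome genes (rows, grouped by their place in the complex) on each of the 6 arrays (columns), as log2 signal relative to the 75th percentile of the array. Colours compare arrays within a row, not genes with each other, since each row is another probe; most rows keep their shade, and Psmc2, Psmd1, Psmd9, Psmd13 and Psmf1 are dark blue on the control growth plate array.

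The subunit genes departed furthest from each other on the control growth plate array: their differences from the median of the other 5 arrays had an SD of 2.44 (log2) over the 42 genes there and of 0.51 to 1.22 on the other arrays. Over all genes the same SD was 2.30 there and 1.09 to 1.55 on the other arrays, so that on this array the members spread about as widely as all genes. Psmc2 and Psmd1, both subunits of the base of the regulatory particle, were far lower on the control growth plate array than on any other array, while the median subunit gene stood 0.51 above its level elsewhere in the main scaling. Psmd9 and Psmd13 were also far lower there than on any other array, and Psmf1 was lowest there but low in mutant interzone too. On the mutant growth plate array none of the 5 was low.

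Psmc2, an ATPase that helps to unfold substrates, had a level of 0.28 in control interzone, -5.95 in control growth plate and 1.45 in control interdigital tissue. In the mutant its levels were 2.49, 2.54 and 2.18 in the same tissues. The control growth plate array thus stood below the other 5, and the next lowest was control interzone. In processed signal this was 17.6 units on the control growth plate array against 1951 to 11737 units on the other 5 arrays.

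Psmd1, the large scaffold of the base that binds ubiquitin receptors, had levels of 1.39, -5.00 and 1.78 in control interzone, growth plate and interdigital tissue and of 1.77, 3.03 and 2.09 in the matching mutant tissues. Again a single array was low, with 34.0 units of processed signal against 4204 to 16456 units on the other 5. The mutant growth plate array was the highest of the 6 for both genes.

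Against the median of the 4 arrays of the other tissues, the control growth plate difference was -7.77 for Psmc2 and -6.78 for Psmd1 on the log2 scale. The rest of the complex, 40 genes, had a median of 0.55 on this measure, with quartiles of -0.23 and 0.88. Of these 40, 9 were at least 2-fold higher and 5 at least 2-fold lower, where 23.1% of all genes were higher and 28.2% lower. The 2 genes thus lay far outside the middle of their own complex, for which they had been chosen. The mutant growth plate array gave 0.73 higher for Psmc2 and 1.26 higher for Psmd1, and a median of 0.23 for the other 40, of which 2 were higher and 3 lower (12.2% and 20.6% of all genes).

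Psmd9, a chaperone that holds ATPases during base assembly, had levels of 0.60, -5.90 and 1.03 in the control tissues and 2.37, 2.59 and 1.86 in the mutant tissues, in the same order. Psmd13, a lid subunit, had 0.23, -4.57 and 0.80 in the control tissues and 0.88, 1.82 and 0.89 in the mutant tissues. For both, the control growth plate array lay below all others, which kept within a narrow band for Psmd13. Psmf1, which encodes an inhibitor of the core particle, had -0.76, -4.82 and -0.65 in the control tissues and -3.51, 0.62 and 0.30 in the mutant tissues. Here the mutant interzone array was low as well.

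These 5 of 42 genes lay at least 16-fold below the median of the other 5 arrays on the control growth plate array, where 8.71% of all genes did so. The 16-fold line was chosen after the values were seen. No member passed it on the other arrays, where the share of all genes was 1.55% (control interzone), 0.760% (control interdigital), 2.53% (mutant interzone), 1.85% (mutant growth plate) and 0.311% (mutant interdigital). Against the 4 arrays of the other tissues the same 5 members passed 16-fold on the control growth plate array (8.23% of all genes) and 0 on the mutant one (1.98%). The next members in order were Psmb8 at -2.16 and Psmd6 at -1.94. The share of 5 in 42 is near that of all genes, and is no result about the complex as such. This array was also the one with the lowest median signal and the fewest spots above background, and the part of this in the low values was not tested.

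**Figure D2:**
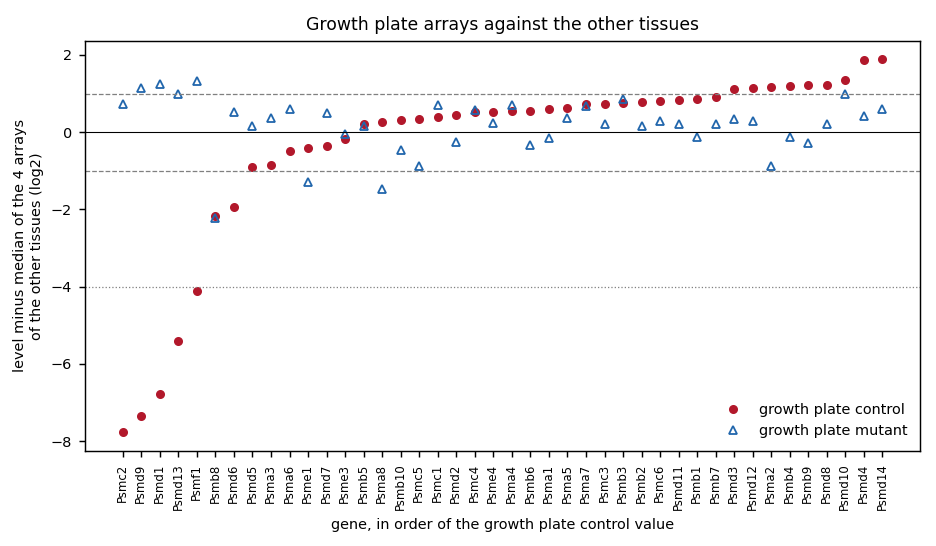
Level of each proteasome gene on the control (filled circles) and mutant (open triangles) growth plate array minus its median over the 4 arrays of the other tissues (log2); dashed lines mark 2-fold and the dotted line 16-fold lower. Psmc2, Psmd9, Psmd1, Psmd13 and Psmf1 lie between -7.77 and -4.12 on the control array, and the other 37 genes above -2.2 on both arrays apart from the mutant value of Psmb8 at -2.21.

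The promoters of these 5 genes, and of the catalytic subunit genes Psmb5 and Psmb6, are shown because one factor is known to act on many subunit genes at once. Windows of 250 bases before to 50 after the start site were given by RefSeq (GRCm38.p6) for 35 of the 42 genes, and were searched on both strands for TGACNNNGC, the core of the antioxidant response element to which Nfe2l1 and Nfe2l2 bind. Overlapping matches were allowed. The core was found in 6 of 35 genes (17.1%) and in 14.0% of the 27025 genes with such a window. Each stretch below ends at or before the start site, reads 5′ to 3′ on the gene's strand, and has the core, where present, in capitals. Psmc2 has a pair of windows, of which the first by position is shown.
Psmc2, chr5:21785175-21785274, plus strand: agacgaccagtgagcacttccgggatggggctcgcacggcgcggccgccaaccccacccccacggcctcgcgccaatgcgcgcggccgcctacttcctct
Psmd1, chr1:86064519-86064618, plus strand: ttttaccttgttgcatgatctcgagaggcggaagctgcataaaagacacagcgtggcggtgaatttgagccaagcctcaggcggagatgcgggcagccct
Psmd9, chr5:123228129-123228189, plus strand: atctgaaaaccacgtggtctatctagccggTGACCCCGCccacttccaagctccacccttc
Psmd13, chr7:140882294-140882393, plus strand: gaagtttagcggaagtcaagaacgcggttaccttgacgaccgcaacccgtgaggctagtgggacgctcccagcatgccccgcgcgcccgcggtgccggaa
Psmf1, chr2:151741311-151741410, minus strand: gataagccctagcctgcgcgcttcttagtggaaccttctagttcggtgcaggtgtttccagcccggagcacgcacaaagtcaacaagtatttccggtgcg
Psmb5, chr14:54618004-54618072, minus strand: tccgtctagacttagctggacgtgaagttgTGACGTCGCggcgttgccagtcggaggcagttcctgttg
Psmb6, chr11:70525318-70525356, plus strand: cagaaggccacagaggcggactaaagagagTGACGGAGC
Of the 5 genes that were low on the control growth plate array, Psmd9 had the core in its window, and Psmc2, Psmd1, Psmd13 and Psmf1 did not. Psmb5 and Psmb6, which had it, were not low there. The match is a description of these letters in this window and says nothing of binding.

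For genes with several probes, the low value on the control growth plate array often belonged to 1 probe of a gene and not to another. Psmc2 had a second probe, annotated to another transcript record, with levels of 0.02, -3.01 and -0.33 in the control tissues and -1.66, -1.97 and -2.91 in the mutant tissues. It was nearly as low in mutant interdigital tissue as on the control growth plate array, and its growth plate difference was 1.04, against 8.49 for the brightest probe. The probes lie at chr5:20841197-20841349 (brightest) and chr5:20835442-20835501 as positioned in the array files, which leave the build unnamed. The single Psmd1 probe lies at chr1:86027149-86027208 on the same unnamed build, and no other probe could be set beside it.

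Psmd9's second probe went the other way, with levels of -0.47, 1.78 and 0.33 in the control tissues and -2.02, 0.25 and -0.39 in the mutant tissues, so that it was highest where the brightest probe was lowest. Psmc5, an ATPase like Psmc2, had a brightest probe at 2.59 on the control growth plate array and another at -5.39, which was between -0.47 and 1.85 on the other arrays. Further probes of Psmc6 and Psmd12 were not well above background on that array alone, while their brightest probes stood at 3.89 and 3.74, the highest of the 6 arrays for each. One further Psmf1 probe was also not well above background there alone.

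Counted by probe, 9 of 61 member probes were at least 16-fold below the median of the other 5 arrays on the control growth plate array, 3 of them not well above background, against 13.3% of all probes. They belonged to 8 genes, and in 4 of those (Psmc5, Psmc6, Psmd9 and Psmd12) another probe was not 2-fold lower. None of the member probes was as low on any other array, where the shares of all probes were 2.93% (control interzone), 0.801% (control interdigital), 4.17% (mutant interzone), 2.95% (mutant growth plate) and 0.550% (mutant interdigital). On the growth plate pair, 6 of 13 genes with several measured probes had probes at least 4-fold apart in their mutant minus control difference (49.8% of all such genes). The counts were 6 of 14 in interzone (39.9%) and 1 of 14 in interdigital tissue (21.4%). Probes at least 2-fold in opposite directions were found for 4 genes in interzone (Psmc2, Psmd9, Psmd14 and Psmf1; 13.1% of all such genes), for Psmc5 and Psmd9 in growth plate (19.1%), and for 0 genes in interdigital tissue (5.65%).

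**Figure D3:**
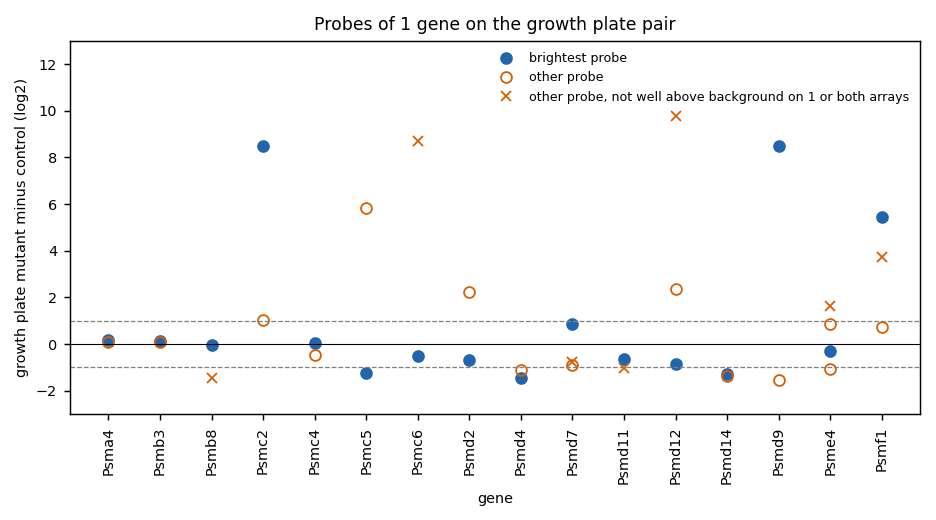
Mutant minus control difference on the growth plate pair (log2) of every probe of the 16 proteasome genes with more than 1 probe; filled circles are the brightest probe, open circles other probes, crosses other probes not well above background on at least 1 of the 2 arrays, and dashed lines mark 2-fold. Psmc2 and Psmd9 have a brightest probe at 8.49 and another probe at 1.04 and -1.53, while both probes of Psma4, Psmb3 and Psmd14 lie close together.

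In the growth plate, 9 of 42 genes were at least 2-fold higher and 7 at least 2-fold lower in the mutant than in the control, where 22.1% of all genes were higher and 32.6% lower. The median difference of the 42 was -0.45, and that of all genes was -0.45. The higher genes were led by Psmc2 (360.5-fold, 8.49 on the log2 scale), Psmd9 (359-fold), Psmd1 (262-fold), Psmd13 (83.7-fold) and Psmf1 (43.6-fold), and these differences mirror the low values on the control array described above. Over other backgrounds, scalings and probe rules the Psmc2 difference was 4.77 to 8.87 and the Psmd1 difference 6.51 to 8.41. Among 16163 genes measured on both arrays, 9 had a difference at least as large as that of Psmd1, Psmc2 and Psmd9 included. Genes not well above background on the control array are left out of this count, such as Cdh1 (9.37) and Trp63 (9.58). Psmc2 and Psmd1 had been chosen for this difference, so their rank is no result. At least 16-fold higher were 4.92% of the 16163 genes and these 5 of 42, by a line drawn after the values were seen. The same 5 were near the all-gene share of low values on the control array (8.71%).

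Markers of other cell types differed between these arrays as well. Of 8 epidermis markers, 3 of the 6 measured on both arrays were higher in the mutant and 0 lower, Cdh1 and Trp63 were well above background in the mutant alone, and the summed signal went from 68.9 to 159 times the 75th percentile. The endothelial markers Tie1, Tek and Kdr were likewise well above background in the mutant alone, 2 of the other 3 were higher, and the sum went from 0.705 to 6.53. Of 6 muscle markers 5 were lower, with sums of 41.7 and 13.2, and of 7 measured leukocyte and macrophage markers 3 were higher and 2 lower. The part of these in the subunit levels was not tested.

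The other members differed less in growth plate, from -2.04 (Psma2) to 2.46 (Psmd6). The beta ring, which holds the cutting sites, had 0 higher and 1 lower of 7 genes and a median of -0.69, with Psmb4 lowest at -1.31. The lid had 2 higher (Psmd6 and Psmd13) and 1 lower (Psmd14) of 8 and a median of -0.70. In the alpha ring Psma3 and Psma6 were higher and Psma2 and Psma8 lower, with a range from -2.04 to 1.22 over its 8 genes. Psma8, an alpha subunit known from the testis, was at -3.63 in control and -5.35 in mutant growth plate. The 3 activator genes differed by less than 2-fold.

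The split of the growth plate calls depended on the scaling. With the percentile taken over probes detected on all arrays it was 10 higher and 4 lower (4311 and 3614 of all 16163 genes). With quantile normalisation it was 10 and 3 (3096 and 6252 of 16154), and in the authors' deposited ratios 6 and 29 (2108 and 10447 of 16163). The median of all genes on this pair was -0.45 in the main scaling and -0.07, -0.53 and -1.56 in these 3, in the same order. The members' median stood 0.00, 0.00, 0.59 and 0.00 above it. The percentile and deposited scalings subtract a constant per array, so this gap could not differ between them.

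In the interzone, the pair that lay on 1 slide, 5 of 42 members were above the control in the mutant and 8 were below it, where 17.8% of all genes were higher and 22.8% lower. The median of the 42 was -0.13 and that of all genes -0.11. The lower genes with the largest differences were subunits of the regulatory particle and its assembly: Psmd6 (12.8-fold), Psmc1 (9.77-fold), Psmd14 (9.62-fold) and Psmd10 (7.88-fold), followed by Psmf1 (6.72-fold). The higher ones were Psma6, Psma7, Psmb8, Psmc2 and Psmd9.

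Psmd6, a lid subunit, had levels of 1.23, -1.38 and 0.66 in control interzone, growth plate and interdigital tissue and of -2.45, 1.08 and 0.46 in the mutant. It was lowest on the mutant interzone array and second lowest on the control growth plate array, so its difference ran in opposite directions in these tissues. Psmc1, an ATPase of the base, had 0.78, 0.64 and 0.15 in the control tissues and -2.51, 0.95 and 0.33 in the mutant tissues, with the mutant interzone array alone low. Psmd10, a chaperone of base assembly also called gankyrin, had 1.64, 1.48 and -0.29 in the control tissues and -1.34, 1.1 and 0.54 in the mutant tissues. For it the control interdigital array was low as well.

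Psmd14, the lid enzyme that cleaves ubiquitin from substrates before they enter the core, had levels of 1.74, 3.21 and 0.90 in the control tissues and -1.53, 1.91 and 1.75 in the mutant tissues. Its brightest probe was thus low on the mutant interzone array alone. The second Psmd14 probe had -1.06, 2.23 and 0.61 in the control and 2.13, 0.86 and 0.20 in the mutant tissues, and was 3.19 higher in mutant interzone where the first was 3.27 lower. The mean of both probes left -0.04. The mean over probes also brought Psmc2 in interzone from 2.21 to 0.26, Psmd9 from 1.77 to 0.11 and Psmf1 from -2.75 to 0.07, the other direction. Psmd6, Psmc1 and Psmd10 had 1 probe each.

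In interdigital tissue the complex differed least. Psma3 (2.79-fold) and Psme1 (2.19-fold) were higher in the mutant, 2 of 42 genes where 10.1% of all genes were higher, and 0 were lower where 16% of all genes were. The median of the 42 was 0.31 with quartiles of -0.02 and 0.55, against a median of -0.18 over all genes. The members' median stood 0.49 above that of all genes. Scalings that subtract a constant per array, the deposited ratios among them, cannot change this gap. It was 0.47 with normexp, 0.32 with quantile normalisation, 0.44 with the mean over probes and 0.54 without the detection filter. In the same pair the 6 epidermis markers measured on both arrays were all higher in the mutant, their summed signal going from 2.46 to 137 times the 75th percentile, and the part of this in the subunit levels was not tested. Psma3, an alpha ring subunit, had levels of 1.88, 0.83 and 1.5 in the control tissues and 1.14, 2.05 and 2.98 in the mutant tissues, and was highest on the mutant interdigital array. Psma5, another alpha subunit and among the 5 largest differences there at 1.80-fold, had 1.89, 2.65 and 1.52 in the control and 2.15, 2.39 and 2.37 in the mutant tissues, with all 6 arrays within 1.13.

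No member was at least 2-fold higher in all 3 tissues of the mutant, or lower in all 3, as 1.62% and 1.90% of all genes were. Differences under 2-fold in all 3 tissues were seen for 18 of 42 members and for 26.4% of all genes. These 18 included 5 of the beta subunits (Psmb1, Psmb2, Psmb6, Psmb7 and Psmb10), the ATPases Psmc3, Psmc4 and Psmc6, the scaffold Psmd2, and 5 lid genes (Psmd3, Psmd7, Psmd8, Psmd11 and Psmd12).

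A single fit over the 6 arrays, limma with genotype and tissue as terms, asked for a genotype difference shared by the tissues. It called 0 of 42 members at an adjusted p of 0.05, and 0 of 15596 genes (0.00%), and at an unadjusted p of 0.05 it had 0 members and 7.15% of all genes. Psmc2 and Psmd9 had the lowest adjusted p of the members, 0.66 each in the limma fit. Psmc2 had a shared difference of 3.81 ± 1.62 (SE, log2) and Psmd9 of 3.70 ± 1.64, both higher in the mutant in 3 of 3 tissues by their brightest probes. The second Psmd9 probe was lower in the mutant in each tissue (-1.55 in interzone, -1.53 in growth plate, -0.72 in interdigital tissue). The second Psmc2 probe was at -1.68, 1.04 and -2.58 in the same order. Psmd1 stood at 2.91 ± 1.73. The fit takes what differs between tissues in the genotype effect as error, and in 2 of its 3 pairs slide and genotype coincide. All arrays of a genotype drew on 2 littermate embryos, so the SE and p measure spread between tissues and not between embryos.

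**Figure D4:**
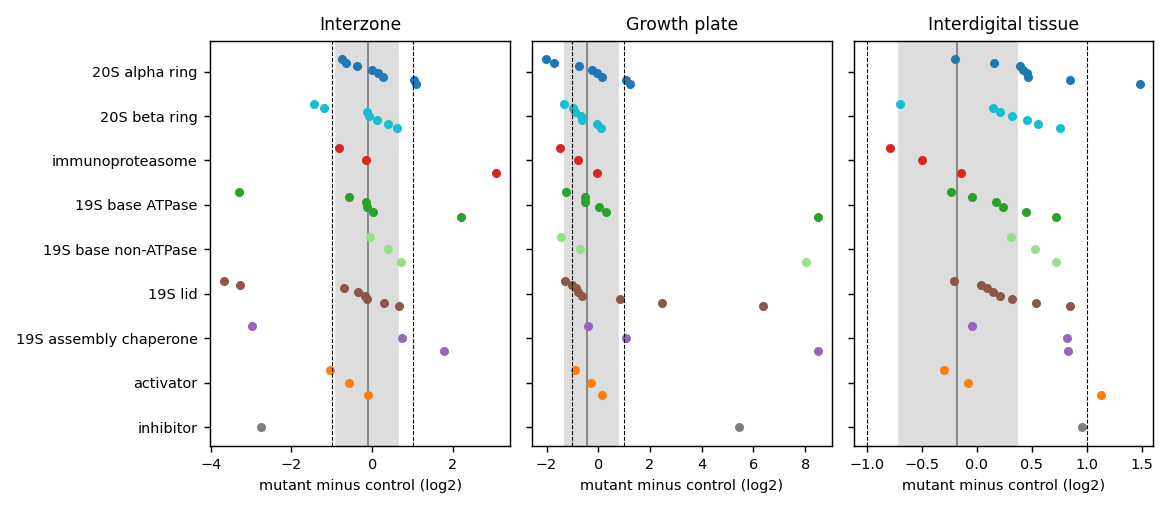
Mutant minus control difference (log2) of the proteasome genes in each tissue, 1 point per gene, by place in the complex; each panel has its own horizontal axis, dashed lines mark 2-fold, and the grey line and band give the median and quartiles of all genes. Most points lie inside 2-fold, the growth plate panel reaches 8.49, and the interdigital panel spans only -0.79 to 1.48.

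The standard catalytic genes ranged over 1.04 to 1.33 (log2) across the 6 arrays, and Psmb8 over 3.8. Psmb5, the chymotrypsin-like subunit, had levels of 2.18, 1.66 and 1.34 in control interzone, growth plate and interdigital tissue and of 0.98, 1.62 and 1.55 in the mutant. It was highest in control interzone and lowest in mutant interzone, a 2.29-fold difference within 1 slide (-1.20 on the log2 scale, and -0.96 in the deposited ratios). Psmb6, the caspase-like subunit, had 4.35, 4.75 and 3.71 in the control tissues and 4.21, 3.86 and 4.17 in the mutant tissues. Psmb7, the trypsin-like subunit, had 3.13, 4.0 and 2.66 in the control tissues and 3.05, 3.31 and 3.22 in the mutant tissues. Both were highest on the control growth plate array and differed by less than 2-fold between genotypes in every tissue in the main scaling. In growth plate Psmb6 was at -0.89 there, -1.06 with normexp and -2.0 in the deposited ratios, and Psmb7 at -0.69, -0.40 and -1.80.

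Of the immunoproteasome subunits, Psmb8 replaces Psmb5, Psmb9 replaces Psmb6 and Psmb10 replaces Psmb7. Psmb8 had levels of -3.73, -4.41 and -1.85 in the control tissues and -0.66, -4.46 and -2.64 in the mutant tissues, so that mutant interzone was highest and both growth plate arrays lowest. In interzone it was 8.42-fold higher in the mutant, a difference of 3.07 that became 0.97, under 2-fold, with the mean over its probes. Its second probe did not follow: it had -6.48, -6.19 and -5.22 in the control tissues and was not well above background on the 3 mutant arrays.

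Psmb9 had levels of 1.24, 2.37 and 1.39 in the control tissues and 1.08, 0.89 and 0.89 in the mutant tissues. The control growth plate array was highest and the other 5 lay close together, which made Psmb9 2.80-fold lower in mutant growth plate (-1.48, and -0.93 with quantile normalisation). Psmb10 had 0.24, 0.32 and 0.07 in the control tissues and -0.57, -0.46 and -0.07 in the mutant tissues, lower in each mutant tissue by less than 2-fold. In interzone the 3 immunoproteasome genes had mixed signs, with Psmb8 at 3.07, Psmb9 at -0.16 and Psmb10 at -0.81. In growth plate Psmb8 was at -0.05, Psmb9 at -1.48 and Psmb10 at -0.78, with Psmb9 alone past 2-fold, while in the deposited ratios all 3 were past 2-fold lower (-1.17, -2.60 and -1.89). In interdigital tissue they were at -0.79, -0.50 and -0.15, all under 2-fold. Psme1, a subunit of the activator that interferon raises with them, had 2.60, 1.66 and 0.98 in the control tissues and 2.03, 0.78 and 2.11 in the mutant tissues. No probe carries the name Psme2, its partner. A probe that the array names Psme2b-ps had levels of 3.70, 3.97 and 3.36 in the control and 3.83, 3.35 and 3.15 in the mutant tissues and is not counted among the 42.

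Leukocytes are a known source of these subunits, and their markers moved with Psmb8 in part. Of 8 leukocyte and macrophage markers, 6 were higher in mutant interzone and 1, Ptprc, was far lower (0.78 in control and -6.12 in mutant interzone). All 8 were well above background on every array except mutant growth plate, where 7 were. Their summed signal, in multiples of the 75th percentile, was 4.73, 12.1 and 16.9 in control interzone, growth plate and interdigital tissue and 14.2, 5.80 and 11.0 in the mutant, so it was low in control interzone and mutant growth plate, while Psmb8 was lowest on both growth plate arrays. Of 8 epidermis markers, 7 were higher and 0 lower in mutant interzone, with sums of 17 in control and 156 in mutant, and 5 of 6 muscle markers were higher, with sums of 13.4 and 38.7. The part of these in the Psmb8 level was not tested. Psmb9 and Psmb10 differed by less than 2-fold in the same pair.

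**Figure D5:**
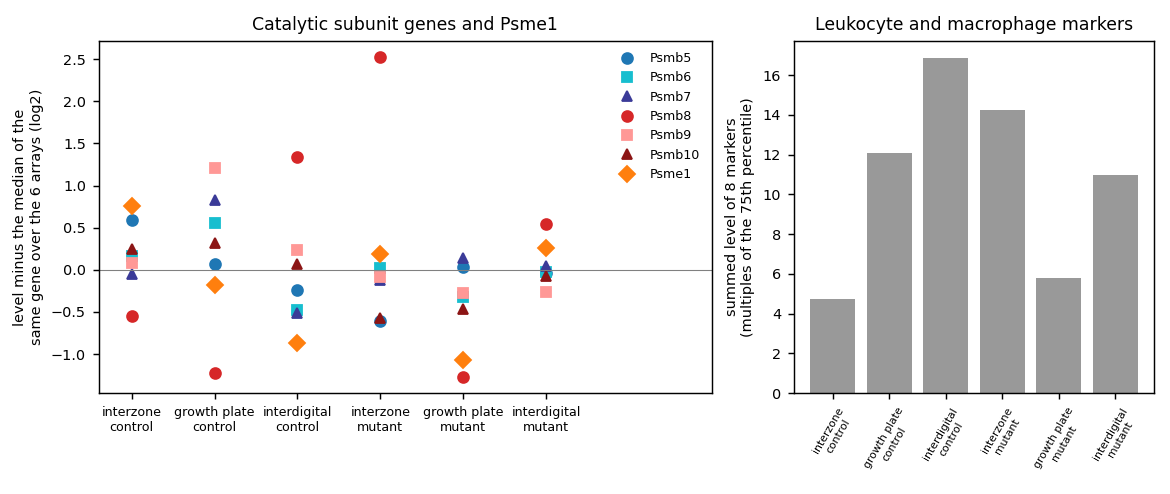
Left, level of the standard catalytic genes (Psmb5, Psmb6, Psmb7), the immunoproteasome genes (Psmb8, Psmb9, Psmb10) and Psme1 on each array, minus the median of the same gene over the 6 arrays (log2). Right, summed signal of 8 leukocyte and macrophage markers on each array, from 4.73 in control interzone to 16.9 in control interdigital tissue; Psmb8 is highest in mutant interzone, and the standard genes stay within about 2-fold of their median.

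Between tissues of the same genotype, the control growth plate array again set the differences. In control embryos, 15 of 42 genes were higher and 7 lower in growth plate than in interdigital tissue (24.8% and 24.9% of all genes). The split was 6 and 10 with the percentile over detected probes (2670 and 5245 of all 16466 genes). With quantile normalisation it was 5 and 9 (6111 and 3044 of 16456), and in the deposited ratios 32 and 6 (10850 and 1885 of 16466). The higher genes in the main scaling came mostly from the core and the lid: 4 of 8 alpha genes, 3 of 7 beta genes and 5 of 8 lid genes, among them Psmd14 (4.94-fold). Psmd4, a ubiquitin receptor of the base, was 5.34-fold higher. Interzone against growth plate in control embryos had 8 higher and 7 lower (24.9% and 23.9% of all genes). Under those 3 scalings this became 11 and 2 (5008 and 2805 of all 16312 genes), 10 and 2 (3179 and 5392 of 16304), and 6 and 27 (2151 and 9744 of 16312). Under the main scaling 20 of 42 members had their highest level on the control growth plate array, as did 35.7% of all genes. The count was 14, 10 and 33 under the others, for which the share of all genes is not given here. The direction in which most of the complex lay on this array is therefore a matter of scaling. By their brightest probes, the low values of Psmc2, Psmd1, Psmd9 and Psmd13 were at least 16-fold under all 4. Psmd9 did not pass that line with the mean over its probes. The share of all genes past 16-fold is given for the main scaling only.

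Comparisons of tissues without that array had 3 to 11 of 42 members past 2-fold. Those with the mutant interzone array still held large differences, with Psmf1 17.5-fold, Psmd6 11.6-fold, Psmc1 11-fold and Psmd14 10.8-fold lower there than in mutant growth plate. Control interzone against interdigital tissue had 3 higher (Psmb3, Psmd10 and Psme1) and 3 lower (Psma6, Psmb8 and Psmc2), where 14.6% of all genes were higher and 14.9% lower. In the deposited ratios this was 7 and 2 (3589 and 2037 of all 17593 genes). In the mutant, interzone against growth plate had 3 higher and 8 lower (21.3% and 18.2% of all genes), or 5 and 7 in the deposited ratios (4162 and 2663 of all 16608 genes). Interzone against interdigital tissue in the mutant had 3 higher and 6 lower (18.2% and 18.0%). Psmc1, Psmd6, Psmd10, Psmd14 and Psmf1 were among the lower genes in both, since their mutant interzone array is shared by these comparisons. Mutant growth plate against mutant interdigital tissue had 0 higher and 3 lower (13.2% and 16.2%), and the lower genes were Psma8, Psmb8 and Psme1. In the deposited ratios the split was 2 and 3 (2826 and 2336 of all 17310 genes).

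Other genes of the ubiquitin and proteasome system, 39 of 42 listed genes on the array, were counted in the same way. In growth plate 11 of 38 measured were higher and 5 lower in the mutant, against 22.1% and 32.6% of all genes. With the percentile over detected probes the split was 16 and 3 (4311 and 3614 of all 16163 genes), and in the deposited ratios 6 and 19 (2108 and 10447). Adrm1, the ubiquitin receptor that docks on Psmd1, had levels of 1.14, -4.60 and 1.69 in the control tissues and 1.23, 1.45 and 1.73 in the mutant tissues. These are from the brighter of its 2 probes, and the other is not given here. It was low on the same array as Psmd1, where 8.71% of all genes were at least 16-fold below the median of the other 5 arrays. Ube3c, a ubiquitin ligase bound to the proteasome, and Nploc4, a cofactor of the unfolding enzyme Vcp, were 46.7-fold and 32.8-fold higher in mutant growth plate. Ube3c, by the brighter of 2 probes, was at -5.72 in control and -0.17 in mutant growth plate, and Nploc4 at -4.82 and 0.21. For both, the control growth plate array was the lowest of the 6. Zfand2a, a stress-induced proteasome adaptor, was 10.2-fold lower.

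In interzone 7 of 38 were higher and 3 lower, against 17.8% and 22.8% of all genes. Tap2, a subunit of the transporter that carries proteasome products for antigen presentation, was 6.96-fold higher, and its partner in peptide loading Tapbp was 9.49-fold lower. Txnl1, a thioredoxin-like protein of the regulatory particle, was 6.44-fold lower, and Ufd1, another Vcp cofactor, 4.46-fold lower. In interdigital tissue 2 of 39 were higher and 0 lower, against 10.1% and 16%.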

How the data were processed

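The authors deposited 1 scanner file per array, with the intensity of each spot as read by Agilent Feature Extraction 9.5.1.1, per the file headers. Per the labels' protocols, the captured RNA went through SuperAmp, a PCR amplification whose steps the supplier does not disclose, and Cy3 was put on 250 ng of the product. The deposited table holds a ratio, the processed signal divided by the array's median, as found by comparison with the scanner files. No spot was saturated.

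Control spots and outlier spots were left out, spots of a probe were averaged, and the 75th percentile of each array was subtracted on the log2 scale, with Python 3.11.15, numpy 2.4.6 and pandas 2.3.3. Normexp alternatives used limma 3.58.1. Of 41174 probes, 22944 were named by accession, 6664 by symbol and 3108 by older symbol in a RefSeq table (GRCm38.p6, used for names), and 8458 had no match. A probe counted as measured when at least 0.5 of its spots were well above background by the scanner's mark. The counting of differences was tested on simulated data.

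Members, gene lists, marker lists and alternatives were chosen with earlier results of these data known. Values on all 6 arrays are given for Psmc2, Psmd1, the 5 largest differences per mutant and control pair, the catalytic and immunoproteasome subunits and Psme1, other members by counts and ranges, and at most 4 other ubiquitin-proteasome genes past 4-fold per pair. With 1 array per group the number of arrays limits the precision, and no single pair was tested. A limma fit on all genes measured on all 6 arrays, with tissue and genotype as terms (2 residual degrees of freedom, Benjamini-Hochberg adjustment), was added after the data were seen. In its test on simulated data, recovery of changed genes was required only at a residual spread smaller than that of these arrays. A lack of calls therefore cannot show that no difference exists. A result on other genes of the system that was computed is not reported here.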

Additional observations from a re-analysis of the deposited data

Results flagged for a closer look

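Psmd6 and Psmf1 are listed because their mutant minus control difference ran in opposite directions in 2 tissues by more than 2-fold each. Psmd6 was at -3.68 (log2) in interzone and 2.46 in growth plate. Psmf1 was at -2.75 in interzone and 5.45 in growth plate. Its interzone direction rests on 1 of 3 probes: the other 2 were at 1.69 and 1.28, the mean over probes was 0.07, and with normexp the brightest probe was at -0.79. Each tissue had 1 control and 1 mutant array, so the difference between tissues was not tested.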

How the results depend on the processing

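Counting from 4-fold in place of 2-fold left 7 members in interzone, 7 in growth plate and 0 in interdigital tissue between genotypes. Over all genes it left 1323 higher and 1710 lower of 16671, 2217 and 2012 of 16163, and 595 and 685 of 17792, in the same order. Between tissues 4-fold left 7 members (interzone and growth plate), 0 (interzone and interdigital) and 9 (growth plate and interdigital) in the control. In the mutant it left 6, 4 and 0, because fewer genes pass a stricter line. All-gene counts in the control were 2370 higher and 1617 lower of 16312, 798 and 995 of 17593, and 1571 and 2356 of 16466. In the mutant they were 1307 and 1349 of 16608, 960 and 1312 of 16842, and 697 and 1080 of 17310. In the deposited ratios, which divide by the median, the members past 2-fold numbered 35 in growth plate and 6 in interdigital tissue between genotypes. They numbered 33 (interzone and growth plate) and 38 (growth plate and interdigital) in the control, and 5 (growth plate and interdigital) in the mutant. Over all genes these ratios gave 2108 higher and 10447 lower of 16163, and 2302 and 2185 of 17792, between genotypes. In the control they gave 2151 and 9744 of 16312, and 10850 and 1885 of 16466, and in the mutant 2826 and 2336 of 17310. The mean over probes gave 4 members in interdigital tissue, and quantile normalisation 14 for control growth plate against interdigital tissue. Over all genes these were 1738 higher and 3177 lower of 17826, and 6111 and 3044 of 16456. For the other ubiquitin-proteasome genes the counts of 10, 16 and 2 became 6 in interzone with normexp, 25 in growth plate in the deposited ratios, and 4 in interdigital tissue with quantile normalisation, the deposited ratios or the mean over probes. Over all genes normexp gave 5395 higher and 2084 lower of 16671 in interzone, and quantile normalisation 2410 and 2489 of 17782 in interdigital tissue. The all-gene counts for the deposited ratios and the mean over probes are those given above. Psmf1 in interzone went from -2.75 to 0.071 with the mean over its probes. The differences of Psmc2 and Psmd1 on the growth plate arrays kept their direction and stayed past 2-fold in all 24 values computed. Below 16-fold on the control growth plate array, Psmf1 no longer counted with normexp, quantile normalisation or the deposited ratios. With the mean over probes Psmc2, Psmd1 and Psmd13 remained. At 8-fold 3 members counted on the mutant interzone array, and at 32-fold 4 on control growth plate. The share of all genes past these lines is not given here, so these counts are no result about the complex. Members by current symbol added Psmb11, and symbols that go on after the number added Psmc3ip and Psme2b-ps. Pairing mutant and control arrays by tissue, the limma fit called 0 members under each scaling, background, probe and detection setting and without each tissue pair, with 0 to 4 members at an unadjusted p of 0.05. Over all genes it called 54 in the deposited ratios and 0 otherwise. Apart from the scaling and construction named, the cause of a change was not tested. Signal over background limits the control growth plate array most.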
